A study of Mus musculus with 18 samples.

Results

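Eph receptors are receptor tyrosine kinases, and ephrins are their membrane-bound ligands on neighbouring cells. Described here are 10 of these genes in the trunk of the mouse embryo at embryonic day 9. They are the A-class receptors Epha1, Epha2, Epha3, Epha5 and Epha7, the B-class receptors Ephb1, Ephb2 and Ephb3, and the ligands Efna5 and Efnb1. They were taken by symbol from a table of 53465 gene identifiers. The list was chosen with results of these same data known, and its name points to differences along the body axis. It is therefore treated as selected on those differences, which are given as a description with no test. Which values chose the genes is not stated, so values of the genotype comparisons may have been used as well. The other 12 Eph and ephrin genes of the table serve as the comparison, which makes a family of 22.

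Each of 9 embryos gave an anterior and a posterior library, 18 in all. The posterior piece held the axial bud and the newest somites. The anterior piece held the older somite-bearing axis, without the head. The 5 control embryos are labelled only as controls. The 4 double knockout (DKO) embryos carried conditional deletions of Meis1 and Meis2, which encode homeodomain transcription factors, made with Delta1Cre, a Cre recombinase driven by Delta1 (Dll1). Delta1 is active mainly in the presomitic mesoderm and its descendants, so other cells of the pieces can keep both genes. Embryos had 20 to 24 somites. Replicate numbers name embryos within a genotype, so control 1 is 1 embryo in both regions. Nothing in the sources used here says whether embryos shared a litter, and the strain is not given there.

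Totals ranged from 12.7 to 38.2 M (megacounts) of expected counts per library, and 3 counts corresponded to 0.0798 to 0.231 CPM (counts per megacount of the library). In the anterior pieces Meis2 was at 176 to 202 CPM in controls and 131 to 157 CPM in DKO embryos, and Meis1 was at 113 to 134 and 90.3 to 111 CPM. In the posterior pieces Meis2 was at 118 to 160 and 90.3 to 117 CPM, and Meis1 at 59.8 to 99.7 and 46.5 to 72.5 CPM. Mean levels of both genes were thus lower but far from 0 in the DKO embryos, with posterior Meis1 overlapping between genotypes, and neither passed the adjusted threshold of 0.05 in either region (edgeR, lowest adjusted p = 0.0522, anterior Meis2). Control 1 is labelled female, yet both of its libraries had Xist at or under 0.339 CPM and Y-linked genes at 151 and 164 CPM. The summed markers of the axial bud and presomitic mesoderm were at 26.5 to 38.0 CPM in the anterior and 239 to 416 CPM in the posterior libraries, the direction the region labels give, and all 7 of these markers were higher posteriorly in both genotypes.

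Contact between an Eph receptor and an ephrin signals into both cells. A-class ephrins are tethered to the membrane by a lipid anchor and B-class ephrins cross it. Receptors of a class bind mostly ligands of the same class, and the result is often repulsion or the sorting of cells at a border. In the vertebrate trunk these proteins take part in the separation of somites, in guiding neural crest cells and motor axons, and in the growth of vessels.

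Epha1 and Epha2 were both several-fold higher in the posterior pieces of all embryos, and Ephb1 was the gene whose regional difference ran in opposite directions in the genotypes. The 250 bases before the transcription start of these 3 genes are therefore printed, 5′ to 3′ on the strand of the gene, from RefSeq on GRCm38.p6. The windows are chr6:42373269-42373518 on the minus strand for Epha1, chr4:141300971-141301220 on the plus strand for Epha2 and chr9:102354694-102354943 on the minus strand for Ephb1.
Epha1: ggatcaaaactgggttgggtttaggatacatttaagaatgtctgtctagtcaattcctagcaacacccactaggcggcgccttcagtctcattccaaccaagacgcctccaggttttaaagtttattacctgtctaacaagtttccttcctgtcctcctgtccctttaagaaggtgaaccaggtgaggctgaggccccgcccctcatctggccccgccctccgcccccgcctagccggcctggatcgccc
Epha2: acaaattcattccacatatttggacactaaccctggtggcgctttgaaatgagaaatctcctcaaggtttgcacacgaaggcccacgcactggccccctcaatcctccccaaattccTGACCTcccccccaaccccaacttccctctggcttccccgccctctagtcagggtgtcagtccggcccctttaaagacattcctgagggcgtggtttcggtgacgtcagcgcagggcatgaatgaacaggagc
Ephb1: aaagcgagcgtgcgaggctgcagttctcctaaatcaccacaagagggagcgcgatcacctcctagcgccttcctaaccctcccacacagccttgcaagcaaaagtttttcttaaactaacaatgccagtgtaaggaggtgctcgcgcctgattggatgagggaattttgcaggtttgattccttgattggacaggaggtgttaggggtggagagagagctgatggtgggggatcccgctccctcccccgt
Capitals mark a match to AGGTCA, the single core element of retinoic acid receptors and related nuclear receptors, which reads TGACCT on this strand and lies 133 bases before the start of Epha2. All 10 genes had a window in the RefSeq table. Both strands were searched for AGGTCA, for TGACAG (the core bound by Meis proteins) and for TGATTNAT (a composite Pbx and Hox core). The Epha2 match was the only one among the 10 genes. For Efnb1 the bases after the RefSeq start did not match an annotated transcript of the gene, so its window is less certain. Of 32851 promoter windows of the same length, 14.02% held AGGTCA, 15.9% held TGACAG and 2.82% held TGATTNAT. A match is a description of the letters, and a missing match says only that they are not in this window.

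Among the A-class receptors, 3 were higher in the posterior piece and 2 in the anterior piece. Epha1 (chromosome 6, 42358487 to 42373268, minus strand) was at 5.08, 4.79, 5.32, 3.95 and 4.96 CPM in anterior controls 1 to 5 and at 30.1, 31.5, 31.4, 32.8 and 28.1 CPM in the same embryos posteriorly. In DKO embryos 1 to 4 it was at 4.43, 3.35, 6.84 and 5.40 CPM anteriorly and at 30.8, 34.2, 38.1 and 29.0 CPM posteriorly. All posterior libraries were far above all anterior ones, and the genotypes overlapped in each region. The posterior level was 6.37-fold the anterior one in controls and 6.65-fold in DKO embryos. An exon of Epha1 overlaps Zyx on the other strand by 236 bases, and whether the counting used the read strand is not given in the sources used here. Zyx, a focal adhesion protein gene, was at 83.9 to 99.6 CPM in anterior and 123 to 151 CPM in posterior libraries, and its part in the Epha1 counts was not tested.

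Epha2 (chromosome 4, 141301240 to 141329384, plus strand), a receptor found in early embryos on cells leaving the primitive streak and node, followed Epha1. In controls 1 to 5 it was at 6.10, 5.49, 10.3, 6.41 and 6.06 CPM anteriorly and at 33.5, 32.0, 31.7, 26.3 and 30.7 CPM posteriorly. In DKO embryos 1 to 4 it was at 8.11, 7.99, 11.7 and 7.47 CPM anteriorly and at 38.0, 37.6, 55.9 and 31.0 CPM posteriorly. The regions did not overlap, the posterior level being 4.52-fold the anterior one in controls and 4.64-fold in DKO embryos. DKO 3 was the highest library in both regions.

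Epha5 (chromosome 5, 84054761 to 84417382, minus strand), known best for axon guidance, had low counts. Anteriorly it was at 0.778 to 1.93 CPM in controls and 0.588 to 1.03 CPM in DKO embryos, which rested on only 13.01 to 27.01 counts per library. Posteriorly it was at 6.57, 14.5, 3.68, 5.92 and 8.54 CPM in controls 1 to 5 and at 7.74, 4.71, 11.1 and 3.86 CPM in DKO embryos 1 to 4. Its posterior level varied more between embryos of a genotype than that of Epha1 or Epha2, with an SD of 4.12 CPM about a mean of 7.85 CPM in controls. The fold between regions was 7.14 in controls and 8.79 in DKO embryos.

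Epha3 and Epha7 were higher anteriorly. Epha3 (chromosome 16, 63543534 to 63864175, minus strand), a receptor known from axial muscle innervation and heart cushions, was at 9.27, 4.59, 18.6, 8.01 and 9.66 CPM in anterior controls 1 to 5 and at 3.80, 9.58, 2.41 and 3.25 CPM in anterior DKO embryos 1 to 4. Posteriorly it was at 3.40, 0.345, 4.43, 2.12 and 2.72 CPM in controls and at 0.569, 2.002, 1.06 and 0.457 CPM in DKO embryos, and the lowest library held 8 counts. The anterior library was the higher in each embryo, although levels within a group differed several-fold. In the DKO embryos 3 of 4 anterior libraries lay below all anterior controls and DKO 2 lay among them.

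Epha7 (chromosome 4, 28813131 to 28967499, plus strand), a receptor of the neural tube and hindbrain, was well detected in both pieces. In controls 1 to 5 it was at 59.6, 68.3, 57.3, 60.1 and 56.3 CPM anteriorly and at 37.3, 21.1, 36.3, 28.5 and 31.9 CPM posteriorly. In DKO embryos 1 to 4 it was at 58.8, 49.3, 67.6 and 56.8 CPM anteriorly and at 25.9, 31.6, 19.1 and 19.3 CPM posteriorly. The posterior level was 0.512 of the anterior one in controls and 0.416 in DKO embryos, with no overlap of regions in either genotype.

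**Figure D1:**
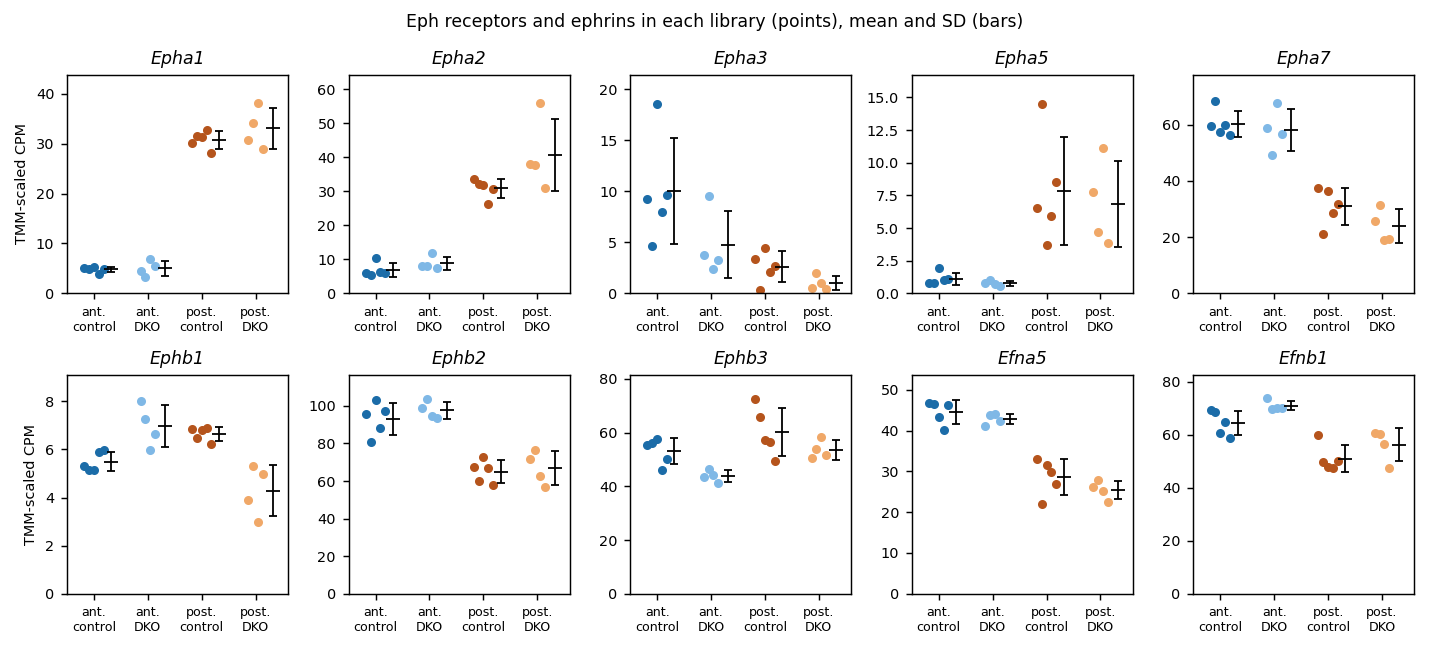
TMM-scaled CPM of the 10 genes in each library (points, 1 per library, 5 control and 4 DKO embryos) by region and genotype, with mean and SD (black bars), each panel with its own axis from 0. Epha1, Epha2 and Epha5 are higher in all posterior libraries than in all anterior ones, and Ephb1 is low in posterior DKO libraries.

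The B-class receptors had regional differences below 1 on the log2 scale. Ephb2 (chromosome 4, 136647539 to 136835988, minus strand), which is known for axon guidance and cell sorting, was at 80.9 to 103 CPM in anterior controls (median 95.6) and 58.1 to 72.8 CPM in posterior controls (median 66.8). The DKO libraries were at 93.6 to 104 CPM anteriorly and 56.9 to 76.4 CPM posteriorly, so the regions did not overlap in either genotype. Ephb3 (chromosome 16, 21204755 to 21223305, plus strand), a partner of Ephb2 in many tissues, was at 46.1 to 57.7 CPM in anterior controls and 49.6 to 72.6 CPM in posterior controls, which overlapped. In DKO embryos it was at 41.3 to 46.4 CPM anteriorly and 50.5 to 58.5 CPM posteriorly.

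Ephb1 (chromosome 9, 101922128 to 102354693, minus strand), a receptor known from the routing of retinal axons at the midline, had levels that crossed over. In controls 1 to 5 it was at 5.31, 5.14, 5.16, 5.89 and 5.99 CPM anteriorly and at 6.84, 6.47, 6.80, 6.91 and 6.21 CPM posteriorly. In DKO embryos 1 to 4 it was at 8.02, 7.27, 5.98 and 6.64 CPM anteriorly and at 3.91, 5.30, 2.97 and 4.97 CPM posteriorly. All 5 control embryos had the higher level posteriorly, and all 4 DKO embryos had it anteriorly. The antisense gene Gm26846 overlaps it by 152 bases and was at or under 0.0515 CPM in all libraries.

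Both ligands of the list were higher anteriorly. Efna5 (chromosome 17, 62604184 to 62881317, minus strand), an A-class ephrin that repels axons, was at 46.9, 46.6, 43.2, 40.0 and 46.2 CPM in anterior controls 1 to 5 and at 33.0, 21.9, 31.5, 29.8 and 26.8 CPM in the posterior ones. In DKO embryos it was at 41.2 to 44.0 CPM anteriorly and 22.6 to 27.9 CPM posteriorly. Efnb1 (chromosome X, 99136130 to 99148991, plus strand), a B-class ephrin needed for skeletal and neural crest patterning, was at 58.8 to 69.3 CPM in anterior and 47.5 to 59.8 CPM in posterior controls. In DKO embryos it was at 69.8 to 73.6 CPM anteriorly and 47.2 to 60.6 CPM posteriorly. Regions overlapped for Efnb1 in controls through control 1, the posterior library with the highest value.

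The log2 fold changes of posterior against anterior summarise these values, first in controls and then in DKO embryos. They were 2.67 (SE 0.0878) and 2.73 (SE 0.195) for Epha1, 2.18 (SE 0.154) and 2.22 (SE 0.203) for Epha2, and 2.84 (SE 0.379) and 3.14 (SE 0.360) for Epha5. They were −1.94 (SE 0.484) and −2.18 (SE 0.535) for Epha3, −0.96 (SE 0.128) and −1.27 (SE 0.159) for Epha7, and −0.64 (SE 0.0972) and −0.74 (SE 0.0713) for Efna5. The others stayed below 1 in size, with −0.52 and −0.54 for Ephb2, −0.34 and −0.33 for Efnb1, 0.18 and 0.30 for Ephb3, and 0.27 and −0.69 for Ephb1. In controls, 4 of the 10 genes were higher in all posterior than in all anterior libraries (9.56% of 15294 genes tested) and 4 were lower (10.3%). In DKO embryos 4 were higher (10.8% of 15777 genes) and 6 lower (12.6%). As the genes are treated as selected on this contrast, nothing is read from these counts.

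Within embryos the difference had 1 sign for most of the genes. Epha1, Epha2 and Epha5 were higher posteriorly in 9 of 9 embryos, by 2.41 to 3.32, 1.61 to 2.53 and 0.902 to 4.08 on the log2 CPM scale. Epha3, Epha7, Ephb2, Efna5 and Efnb1 were higher posteriorly in 0 of 9. Ephb3 was higher posteriorly in 7 of 9 embryos, and Ephb1 in 5 of 9.

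The rest of the family, which the list does not hold, also differed between regions. Of the 12 other genes 11 could be tested, and Epha6 was at or under 0.0266 CPM in all libraries. In controls 5 rose and 4 fell from anterior to posterior by edgeR's quasi-likelihood test at an adjusted p of 0.05, against 12.1% of all 15294 genes rising and 13.3% falling. In DKO embryos 5 again rose and 4 fell, against 8.76% and 9.7% of 15777 genes. The ligands Efna1, Efna3 and Efna4 and the receptors Epha4 and Ephb4 rose in both genotypes. The median over the 11 genes was 0.08 in controls and 0.12 in DKO embryos, and that over all genes was −0.01 and 0.01.

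Efna3, an A-class ligand, had the largest difference of the whole family, from 1.83 ± 0.443 CPM (SD, n = 5) to 17.9 ± 5.28 CPM in controls. Its log2 fold change was 3.26 (SE 0.227, edgeR adjusted p = 6.82e-07) in controls and 3.72 (SE 0.250, edgeR adjusted p = 7.36e-06) in DKO embryos. Efna1, a ligand that binds Epha2, rose by 1.503 (SE 0.116) and 1.91 (SE 0.220), from 9.29 ± 0.820 CPM (SD, n = 5) to 26.4 ± 4.40 CPM in controls. The A-class ligands Efna1, Efna3 and Efna4 had the same sign as Epha1, Epha2 and Epha5, while Efna2 and Efna5 had the opposite sign. Efna4 rose by 0.39 and 0.53.

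Among the other receptors, Ephb4, the receptor of veins, rose by 0.39 (SE 0.0517) in controls and 0.47 (SE 0.0577) in DKO embryos, from 122 ± 6.01 to 161 ± 10.9 CPM in controls (SD, n = 5). Epha4, which acts at somite and rhombomere borders, rose by 0.68 in controls (edgeR adjusted p = 5.3e-05) and by 0.52 in DKO embryos (adjusted p = 0.0419). The DKO call of Epha4 was lost without DKO 1 (adjusted p = 0.256), without DKO 2 (0.0507) or without DKO 3 (0.0957). Efnb3, a ligand of the floor plate and spinal cord, fell in both genotypes, with log2 fold changes of −1.05 (SE 0.102) and −1.08 (SE 0.0982), and Efna2 with −0.42 and −0.44. The Efna2 call in DKO embryos was lost without DKO 1 (adjusted p = 0.104).

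Further genes that fell were less firm. Epha8, a receptor of the midbrain, fell with a log2 fold change of −0.91 in controls (edgeR adjusted p = 0.0384), a call lost without control 1, 2, 4 or 5 (adjusted p = 0.0519, 0.0999, 0.114 and 0.106) and with no filter on low counts (0.0525). It was −1.20 in DKO embryos (edgeR adjusted p = 0.00199). Efnb2, the ligand of Ephb4 on arteries, fell in controls with −0.25 (edgeR adjusted p = 0.0189), lost without control 2 (0.0809) or control 4 (0.0787), and had −0.21 in DKO embryos (adjusted p = 0.190). Epha10, a receptor without kinase activity, fell in DKO embryos with −1.40 (edgeR adjusted p = 0.0122), lost without DKO 1 (0.0795) or DKO 2 (0.0665), and had −0.51 in controls (adjusted p = 0.281). Whether these differences themselves differ between genotypes was tested by the interaction term, which none of the 11 genes passed.

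**Figure D2:**
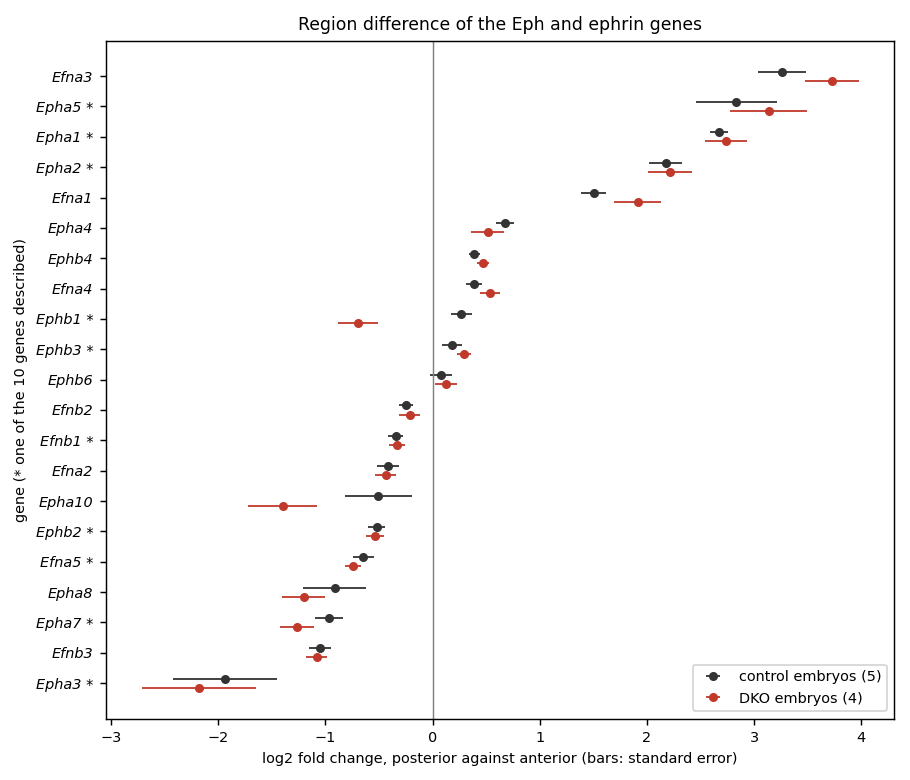
Log2 fold change of posterior against anterior (x axis) with its standard error for the 21 Eph and ephrin genes tested, in control embryos (black) and DKO embryos (red), ordered by the control value; asterisks mark the 10 genes, treated as selected on this difference. Efna3 has the highest value in both genotypes, and Ephb1 is the gene with black and red points on opposite sides of 0.

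Levels were compared between genes per kilobase of annotated exon, which corrects for length but not for the isoform in use. In anterior controls the means were 18.7 CPM per kilobase for Efnb1, 11.1 for Efna5, 7.999 for Ephb3, 7.37 for Ephb2 and 6.10 for Epha7. They were 1.47 for Epha2, 1.23 for Epha1, 1.15 for Epha3, 0.785 for Ephb1 and 0.0672 for Epha5. The ranges of Ephb3 and Ephb2, of Ephb2 and Epha7, and of each neighbouring pair from Epha2 to Ephb1 overlapped between libraries, and the other neighbours did not.

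In posterior controls the order had changed below the first place. Efnb1 was at 14.8 CPM per kilobase, followed by Ephb3 at 9.09, Epha1 at 7.83, Efna5 at 7.09, Epha2 at 6.60, Ephb2 at 5.15, Epha7 at 3.14, Ephb1 at 0.949, Epha5 at 0.469 and Epha3 at 0.300. Neighbours from Ephb3 to Ephb2 overlapped in turn, as did Epha5 and Epha3. Epha1 and Epha2 thus moved from the weakly detected genes of the anterior piece to the level of Ephb3 and Efna5. In the DKO embryos Efnb1 was likewise first in both regions, Epha5 last anteriorly and Epha3 last posteriorly.

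Sums over a class show the family's makeup. The 9 A-class receptors summed to 16.02 ± 1.27 CPM per kilobase (SD, n = 5) in anterior and 27.2 ± 0.908 in posterior controls, and the 3 B-class ephrins to 57.4 ± 1.31 and 37.9 ± 2.96. The 5 B-class receptors summed to 45.0 ± 2.13 and 52.5 ± 3.66, and the 5 A-class ephrins to 54.9 ± 1.97 and 67.7 ± 5.79. In DKO embryos the same sums were 15.2 ± 1.05 and 26.9 ± 3.92 for A-class receptors and 63.5 ± 3.26 and 41.1 ± 5.09 for B-class ephrins (SD, n = 4). The sums include the 10 genes and were given no test. The 5 A-class receptors of the list alone summed to 10.02 ± 0.914 in anterior and 18.3 ± 0.882 CPM per kilobase in posterior controls, which is most of the difference between the A-class sums. In these whole pieces of tissue, fewer cells of a type and less RNA per cell cannot be told apart.

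Between the embryos labelled DKO and the controls, no member of the list passed the adjusted threshold. The embryos carried Meis1 and Meis2 transcripts at the reduced levels given above, so the comparison is between labels and not between presence and absence of these transcripts. In the anterior pieces 0 of 10 genes passed (edgeR), where 0.0394% of 15238 genes did, and 4 had an unadjusted p below 0.05, as 13% of all genes did. In the posterior pieces 0 of 10 passed, where 0.0126% of 15936 genes did, and 3 had an unadjusted p below 0.05, as 11% of all genes did. With DESeq2 1 of the 10 passed in each region, where 1.94% of all genes did anteriorly and 1.08% posteriorly. The median log2 fold change of the 10 genes was −0.01 anteriorly and −0.17 posteriorly, against 0.00 and 0.01 over all genes. None of the other 11 family genes passed in either region with edgeR, where 6 had an unadjusted p below 0.05 anteriorly (13% of all genes) and 1 posteriorly (11%).

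Ephb3 had the smallest adjusted p of the anterior comparison. Its mean was 53.1 ± 4.87 CPM over the 5 controls and 43.8 ± 2.14 CPM over the 4 DKO embryos (SD). The log2 fold change was −0.29 (SE 0.0681, edgeR adjusted p = 0.134), and DESeq2 gave an adjusted p of 0.0192. The groups overlapped only between DKO 2, at 46.4 CPM, and control 4, at 46.1 CPM. Posteriorly the log2 fold change was −0.17 (SE 0.0989, edgeR adjusted p = 0.509).

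Ephb1 differed between genotypes in opposite directions in the regions. Anterior controls were at 5.499 ± 0.410 CPM (SD, n = 5), below the 6.98 ± 0.874 CPM of the 4 anterior DKO embryos, a log2 fold change of 0.34 (SE 0.116, edgeR adjusted p = 0.259). Posteriorly it was at 6.64 ± 0.297 CPM in controls and 4.29 ± 1.06 CPM in DKO embryos, a log2 fold change of −0.63 (SE 0.165, edgeR adjusted p = 0.288), with DESeq2 at an adjusted p of 0.0358. All 4 posterior DKO libraries were below all 5 controls, which held for 1 of the 10 genes, and non-overlap in either direction held for 4.27% of all genes.

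The posterior effect on Ephb1 minus the anterior one was −0.96 (SE 0.197, 95% interval −1.35 to −0.58), the interaction term of the fit. Its edgeR p across all genes was 1.12e-04 before adjustment. After adjustment over all 16428 genes it missed the threshold in edgeR (adjusted p = 0.573), also with the embryo as a block (−0.99, adjusted p = 0.361), and passed it in DESeq2 (adjusted p = 0.0106). Over all genes edgeR called 0 interactions (0%), with 567 at an unadjusted p below 0.05, and DESeq2 called 10 (0.0609%). No other of the 10 genes had an unadjusted interaction p below 0.05. Summed markers of cell types also differed in level between genotypes. In posterior pieces, markers of somite derivatives were at 311 to 402 CPM in controls and 175 to 334 CPM in DKO embryos, which overlapped, and neural tube markers were at 220 to 305 and 265 to 349 CPM. Surface ectoderm markers did not overlap between the posterior genotypes, at 169 to 240 CPM in controls and 244 to 306 CPM in DKO embryos, and were at 77.7 to 163 and 89.5 to 147 CPM anteriorly. Primitive erythroid markers were at 965 to 4608 CPM in anterior controls and 1200 to 2031 CPM in anterior DKO embryos, and at 1364 to 2202 and 1630 to 3356 CPM posteriorly. Of these 6 erythroid genes 5 had an unadjusted interaction p below 0.05 (edgeR), and none passed after adjustment. Neural crest markers averaged 207 CPM in anterior controls and 237 CPM in anterior DKO embryos, and 143 and 134 CPM posteriorly, the order of Ephb1 in each region. The posterior sums overlapped, and 4 of the 5 genes had a positive posterior DKO effect (median 0.12), the opposite sign to the summed level. Of the 5 neural crest genes 0 had a positive interaction and 0 had an unadjusted interaction p below 0.05 (edgeR), with a median of −0.23. None of the markers of these 5 lists was at 0 in all libraries of a group, and their part in the Ephb1 values was not tested.

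Efnb1 was the 1 gene of the 10 whose groups did not overlap anteriorly, where 5.13% of all genes did not. It was at 64.4 ± 4.63 CPM over the 5 controls and 70.9 ± 1.81 CPM over the 4 DKO embryos (SD), a log2 fold change of 0.13 (SE 0.0514, edgeR adjusted p = 0.326). The gene lies on the X chromosome, and the sex label of control 1 does not match its transcripts. Without control 1 the value was 0.16 (edgeR adjusted p = 0.282). Neural tube markers were at 394 to 516 CPM in anterior controls and 510 to 573 CPM in anterior DKO embryos, and somite derivative markers at 324 to 370 and 242 to 324 CPM. Neural crest markers did not overlap, at 185 to 215 CPM in anterior controls and 217 to 255 CPM in anterior DKO embryos. The part of these markers in the Efnb1 and Ephb3 values was not tested.

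Epha3 had the largest fold changes between genotypes and also the widest errors. They were −1.08 anteriorly (SE 0.443, edgeR adjusted p = 0.340) and −1.32 posteriorly (SE 0.600, edgeR adjusted p = 0.453). The anterior value was −0.74 without control 3, the highest control, and −1.64 without DKO 2, the highest DKO embryo. Epha2 was higher in DKO embryos by 0.36 anteriorly (SE 0.200, edgeR adjusted p = 0.485) and 0.40 posteriorly (SE 0.147, edgeR adjusted p = 0.427), and by 0.19 and 0.20 without DKO 3. Over all fits the Epha2 values ranged from 0.19 to 0.54 anteriorly and from 0.20 to 0.50 posteriorly. Neither gene passed the threshold in any alternative fit run.

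The other genes had small or imprecise differences. The 95% interval of the DKO effect was −0.33 to 0.42 anteriorly and −0.07 to 0.28 posteriorly for Epha1, and −0.23 to 0.10 and −0.734 to −0.00197 for Epha7 (posterior edgeR adjusted p = 0.480). It was −0.07 to 0.20 and −0.13 to 0.22 for Ephb2, and −0.17 to 0.04 and −0.40 to 0.07 for Efna5. Epha5, with few anterior counts, had −1.12 to 0.12 and −0.96 to 0.56, and its anterior log2 fold change ranged from −0.65 to −0.24 over the fits. A change of 0.5 in either direction on the log2 scale was thus outside the anterior interval of Epha1, Epha7, Ephb2 and Efna5 but not of Epha5. These intervals use the normal quantile and are narrower than the test allows. The interval of posterior Epha7 leaves out 0, although its unadjusted p was above 0.05 (edgeR).

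**Figure D3:**
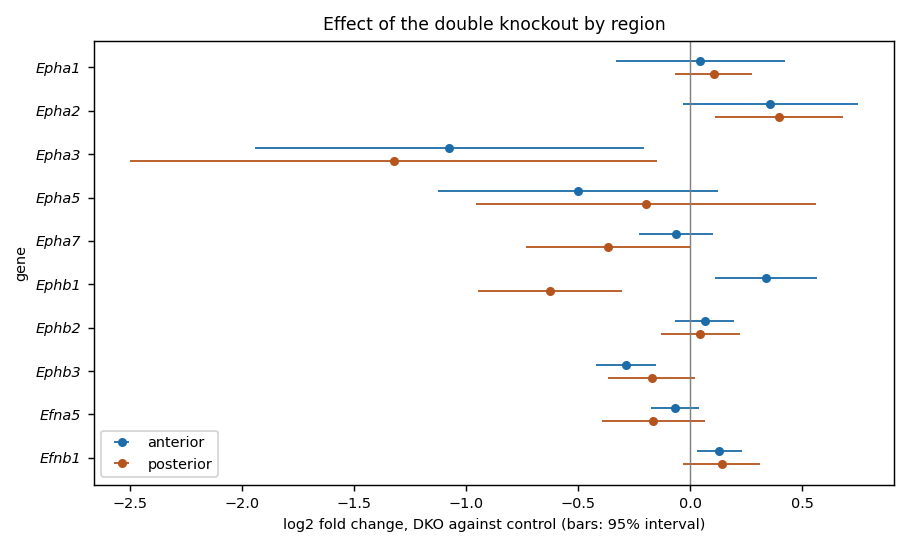
Log2 fold change of DKO against control (x axis) for the 10 genes in anterior (blue) and posterior (brown) pieces, with bars of the 95% interval. Ephb1 lies above 0 anteriorly and below 0 posteriorly, and Epha3 has the widest bars.

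Embryos differed in age, and somite number, a label, was set against the level of each of the 10 genes in each region over the 9 embryos. These 20 relations were chosen after the data had been seen and were tested by two-sided exact permutation, with Benjamini-Hochberg adjustment over the 20. Epha7 in the anterior piece was lower in embryos with more somites (Pearson r = −0.877, exact permutation p = 6.61e-04, adjusted p = 0.0132). Spearman's rho was −0.855 (exact permutation p = 0.00529, adjusted p = 0.106). Its level was 68.3 and 67.6 CPM in the 2 embryos with 20 somites and 57.3 and 49.3 CPM in the 2 with 24. Without the embryos control 2 and DKO 3, the farthest from the median somite number, r kept its sign at −0.650 over 7 embryos and no longer passed (exact permutation p = 0.126). With genotype means removed r was −0.895. Embryos with Xist transcripts had 20 to 22 somites, and those with Y-linked transcripts, control 1 among them, had 23 or 24. Somite number and sex can therefore not be told apart in any of the 20 relations.

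Other relations did not pass the adjustment. In the posterior piece Epha7 had r = 0.673 (exact permutation p = 0.0528, adjusted p = 0.220; rho 0.667, p = 0.0565, adjusted p = 0.226). Posterior Epha5 was lower with somite number (r = −0.802, exact permutation p = 0.0109, adjusted p = 0.0727; rho −0.778, p = 0.0176, adjusted p = 0.131; r = −0.484 without the 2 embryos). Anterior Ephb2 was higher (r = 0.786, exact permutation p = 0.00906, adjusted p = 0.0727; rho 0.769, p = 0.0197, adjusted p = 0.131; r = 0.825 without the 2 embryos). Anterior Epha3 had r = 0.663 (exact permutation p = 0.0549, adjusted p = 0.220; rho 0.7096, p = 0.0377, adjusted p = 0.189), and r = 0.871 with genotype means removed. No separate correlation is given within a genotype, as these hold 5 and 4 embryos.

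**Figure D4:**
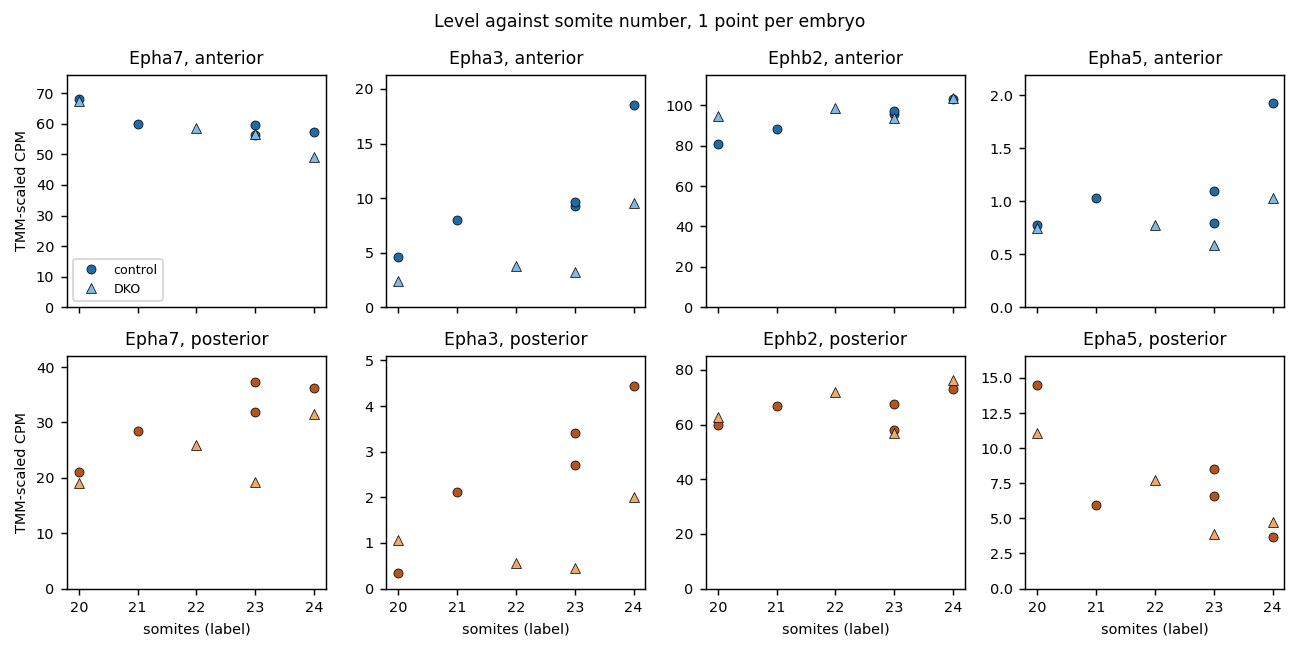
TMM-scaled CPM of 4 genes against the somite number of the embryo, 1 point per embryo, for 5 control (circles) and 4 DKO embryos (triangles), anterior pieces in the upper row and posterior pieces in the lower row, with axes from 0. Anterior Epha7 is highest in the embryos with 20 somites, where posterior Epha5 is highest too.

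The genes were also compared with each other over the 18 libraries, on log2 CPM. With group means removed, Epha7 and Efna5 had the highest correlation of a pair (r = 0.749), followed by Epha3 with Ephb2 (0.665) and with Efna5 (0.658). Epha1 and Epha2 had r = 0.509, and Epha2 and Ephb1 had the lowest value (r = −0.605). The points share libraries and embryos, and the values are descriptions over 18 libraries.

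Among 11801 protein-coding genes with a mean of at least 50 counts, the most like each gene over the 18 libraries were found by Pearson correlation of log2 CPM. Group means were not removed, so these values hold the regional difference itself, and strongly regional genes score high with any gene of the same direction. Epha1 and Epha5, for example, had r = 0.920 over the 18 libraries and 0.0148 with group means removed. Epha1 was nearest to Hoxc10 (r = 0.992), a posterior Hox gene, then Rnf128 (0.990) and Msgn1 (0.989), a presomitic mesoderm factor. Epha2 was nearest to Sulf1 (0.982), Spry4 (0.977), an inhibitor of fibroblast growth factor signalling, and Itgb5 (0.975). Epha5 was nearest to Slc37a3 (0.971), Ifngr2 (0.971) and Il17rd (0.970).

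For the anterior genes, Epha7 was nearest to Slc1a3 (r = 0.977), Rarb (0.973), a retinoic acid receptor gene, and Plxna2 (0.970), a semaphorin receptor gene. Efna5 was nearest to Plxna2 (0.970), Rarb (0.970) and Pcsk6 (0.966). Epha3 was nearest to Clmp (0.946), Ralgds (0.941) and Klhl23 (0.933), and Ephb2 to Wscd2 (0.975), Fam219a (0.974) and Map1a (0.972). Efnb1 was nearest to Vangl2 (0.924), a planar cell polarity gene, Ddr1 (0.921) and Nrbp2 (0.915), and Ephb3 to Nfatc4 (0.912), Dnmt3a (0.856) and Pdgfra (0.855). Ephb1, with a small regional difference of opposite sign in the genotypes, was nearest to Nr2f2 (r = 0.739), Cdkn1c (0.713) and Sema6c (0.693).

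Genes that carry the signal inside the cell were called between regions at shares near or below those of all genes. Of 31 listed adaptors, kinases and exchange factors 30 could be tested. In controls 4 rose posteriorly and 3 fell (edgeR), where 12.1% and 13.3% of all genes did. In DKO embryos 1 rose and 2 fell, where 8.76% and 9.7% of all genes did. The median log2 fold change was −0.01 and −0.03, against −0.01 and 0.01 over all genes. Src, a kinase that acts below Eph receptors, rose by 0.28 (edgeR adjusted p = 0.00769) and 0.33 (edgeR adjusted p = 0.00495). Ptpro, a phosphatase that dephosphorylates Eph receptors, fell in both genotypes, with −1.54 (edgeR adjusted p = 9.33e-04) and −2.01 (edgeR adjusted p = 3.95e-04). Its counts were low, at 8 to 20 per posterior control library and 6 to 17 per posterior DKO library. In controls the Rac exchange factors Tiam1 (0.35) and Kalrn (0.32) also rose. The guanine exchange factor Ngef passed in controls with −0.79, a call lost without control 1 (adjusted p = 0.0564) or control 4 (0.0589). The kinase Rock2 (0.14) and the G-protein regulator Rgs3 (−0.21) passed in controls too. The Rock2 call was lost without control 3, 4 or 5 (adjusted p = 0.110, 0.0661 and 0.0775), with upper quartile scaling (0.0515), with no filter on low counts (0.0654) and with all 18 libraries in one fit (0.177). The Rgs3 call was lost without control 1, 3 or 5 (0.0895, 0.0756 and 0.0890) and with no filter (0.0619). Itsn1 passed in DKO embryos (−0.29), a call lost without DKO 1 (adjusted p = 0.131) or DKO 3 (0.120). None of the 30 passed for genotype in either region with edgeR, where 0.0394% and 0.0126% of all genes did. At an unadjusted p below 0.05 there were 1 anterior and 2 posterior genes, as for 13% and 11% of all genes.

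Genes of the segment border, where Eph signalling is known to act, were counted in the same way. In controls 8 of 12 rose posteriorly and 1 fell (edgeR), where 12.1% and 13.3% of all genes did. In DKO embryos 6 rose and 0 fell, where 8.76% and 9.7% of all genes did. The median log2 fold change was 0.59 and 0.32, against −0.01 and 0.01 over all genes. Mesp2, which sets the border of the next somite, rose by 4.62 (SE 0.455) in controls and 4.18 (SE 0.441) in DKO embryos, and Ripply2, which limits Mesp2, by 4.11 (SE 0.482) and 4.85 (SE 0.492). Anteriorly Mesp2 held only 0 to 4 and Ripply2 0 to 5 counts per library. Both thus entered the region fits through their posterior counts, are among the genes counted as rising, and have fold changes that rest on few anterior counts. Ripply1, a relative of Ripply2, rose by 2.04 in DKO embryos (edgeR adjusted p = 0.00197) and by 0.82 in controls (edgeR adjusted p = 0.0377). The control call was lost without control 1, 3, 4 or 5 (adjusted p = 0.111, 0.0822, 0.174 and 0.0622) and with no filter on low counts (0.0817). Fn1, the fibronectin laid down at the border, rose by 1.27 and 1.44. Uncx, a marker of the posterior part of a somite, rose by 1.002 in controls (edgeR adjusted p = 0.00364) and had 0.18 in DKO embryos (adjusted p = 0.575). Posterior control 5 was at 43.0 CPM and the other posterior controls at 18.4 to 23.6 CPM. The control value ranged from 0.72 to 1.19 over the alternative fits and stayed past the threshold. Tbx18, of the anterior part of a somite, had −0.52 in controls (edgeR adjusted p = 0.00469), a call lost with all 18 libraries in one fit (0.0713), and −0.63 in DKO embryos (adjusted p = 0.180). In the interaction of region and genotype 0 of the 12 genes passed (edgeR), as 0% of all genes did. At an unadjusted p below 0.05 there were 3, where 3.45% of all genes were. A call in only 1 genotype is therefore not read as a difference between genotypes.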

How the data were processed

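RNA was sequenced from 18 poly(A) libraries (single reads of 61 bp, per the labels' protocols). The authors deposited RSEM expected counts per Ensembl gene on GRCm38, not scaled between libraries. Per the submitters' processing notes the tools were CASAVA, cutadapt and RSEM, and versions and the use of strand are not given in the sources used here. Symbols, exon lengths and coordinates came from GENCODE M21 (53274 of 53465 identifiers matched), and promoter sequences from RefSeq (GRCm38.p6).

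Expected counts were rounded and tested in R 4.3.3 with edgeR 4.0.16 (filterByExpr with minimum count 10 and minimum total 15, TMM scaling, glmQLFit and glmQLFTest, Benjamini-Hochberg adjustment over all genes tested, threshold 0.05). Log2 CPM had a prior count of 2. The standard error was the log2 fold change divided by the square root of F, and 95% intervals used the normal quantile. With so few libraries these intervals are narrower than those of the quasi-likelihood test would be. The comparisons were DKO against control in each region, their interaction, and posterior against anterior in each genotype. P-values of DKO against control measure the spread between embryos. The main region and interaction fits held no embryo term. They treat the 2 libraries of an embryo as independent, and their p-values measure the spread between libraries.

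The anterior and posterior libraries with the same genotype, sex label and somite number come from 1 embryo. Their deviations from group means correlated at 0.256 to 0.570 in 9 pairs, against −0.283 to 0.0917 between 32 pairs of different embryos. The embryo was therefore a block in an alternative. Other alternatives were DESeq2 1.42.0, other scalings, filters, covariates, unrounded counts, all libraries in 1 fit, and leaving out each embryo.

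The 10 genes, the lists, and the tests were chosen with earlier results of these data known. All 10 genes are named, other family genes where they passed the threshold, the 4 genes with the largest fold change in each direction among those of the signalling and segment border lists past the threshold, and the 3 genes most like each of the 10. Further marker lists, for neural crest, endothelium, gut endoderm, surface ectoderm, primitive erythroid cells and heart, are given in the closing section. On simulated data with the same group sizes, edgeR made 0 calls with no changed genes. It found 45.9% of anterior, 18.6% of posterior and 20% of interaction changes of 0.5 on the log2 scale, and 80.6%, 70.4% and 68.7% of changes of 1. With these 200 changed genes it also made 5, 8 and 6 false calls. The simulated libraries were drawn independently, without the pairing of 2 libraries from an embryo. The reads carry no molecular identifiers, so the floor of 3 counts covers counting error only.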

Additional observations from a re-analysis of the deposited data

Results flagged for a closer look

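In 5 of 40 gene and group combinations 1 library stood apart from the others of its group by Dixon's criterion, which chance meets in about 1 in 20. Epha2 was highest in anterior control 3 (10.3 CPM) and anterior DKO 3 (11.7 CPM). Epha5 was highest in anterior control 3 (1.93 CPM), a library with the lowest total of the series. Efnb1 was highest in anterior DKO 1 (73.6 CPM) and in posterior control 1 (59.8 CPM), the embryo whose transcripts do not match its sex label. Ephb1 had an interaction of region and genotype of −0.96 on the log2 scale, with 5 of 5 control embryos higher posteriorly and 4 of 4 DKO embryos higher anteriorly. The test of that difference missed the threshold in edgeR (adjusted p = 0.573) and passed it in 1 of 16 alternatives, DESeq2 (adjusted p = 0.0106), the others reaching up to 1.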

How the results depend on the processing

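The regional differences of the 10 genes kept their sign in 250 of 250 alternative fits, and 0 members passed for genotype or interaction in edgeR's alternatives. DESeq2 passed 1 member in each of the 3 comparisons. Over all genes, the anterior DKO comparison called 6 genes, and 296 with DESeq2, 83 with no filter, 19 with all 18 libraries in 1 fit, 88 with sex label and somite number as covariates, and 1 to 57 when 1 embryo was left out. The posterior one called 2, and 162, 14 and 51 in the first 3 of these, 1 with a filter at a mean of 50 counts, and 2 to 24 with 1 embryo left out. The interaction called 0, 10 with DESeq2 and 0 to 1 with 1 embryo left out. The region comparison in DKO embryos called 2913, and 1728 to 2550 with 1 embryo left out, the lowest without DKO 1. With the replicate block (embryo) the paired fits called 5136 genes for region in controls, 3004 in DKO embryos and 0 for the interaction. No member passed for the interaction with the block, and the members' region differences were given no test. The count of 9 other family genes past the threshold for region ranged over 7 to 9 in controls and 6 to 9 in DKO embryos with 1 embryo left out.

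Leaving out 1 embryo changed the sign of 9 small, uncalled differences. The DKO effect ranged from −0.13 to 0.19 for anterior Epha1, from −0.143 to 0.00851 for anterior Epha7, from −0.52 to 0.15 for posterior Epha5 and from −0.0175 to 0.106 for posterior Ephb2. The interaction ranged from −0.0921 to 0.158 for Epha1, −0.14 to 0.13 for Epha2, −0.14 to 0.77 for Epha5, −0.0728 to 0.0291 for Ephb2 and −0.0267 to 0.0766 for Efnb1. Low counts limit Epha5 anteriorly and Epha3 posteriorly. The causes of these shifts were not tested.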

Other observations

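The pieces also held transcripts of other cell types. Over both genotypes summed neural tube markers were at 394 to 573 CPM anteriorly and 220 to 349 CPM posteriorly. All 6 of these genes were called lower posteriorly in both genotypes (edgeR), where 13.3% of all genes fell in controls and 9.7% in DKO embryos. Summed neural crest markers were at 120 to 162 CPM in posterior controls and 114 to 174 CPM in posterior DKO embryos. Over both genotypes endothelial markers were at 206 to 273 CPM anteriorly and 141 to 250 CPM posteriorly. Heart markers were at 13.4 to 28.3 CPM anteriorly, at 2.66 to 23.3 CPM in posterior controls (median 3.45) and at 3.11 to 5.73 CPM in posterior DKO embryos. Surface ectoderm markers were at 77.7 to 163 CPM anteriorly and 169 to 306 CPM posteriorly, and gut endoderm markers at 76.6 to 117 and 110 to 162 CPM. Primitive erythroid markers were at 965 to 4608 CPM anteriorly and 1364 to 3356 CPM posteriorly. The part of these differences in the Eph and ephrin levels was not tested.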
